A study of Mus musculus with 6 samples.

Results

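Matricellular proteins are secreted proteins that sit in the extracellular matrix without building its fibres, and 9 of their genes were examined: Postn, Tgfbi, Tnc, Thbs1, Thbs2, Sparc, Spp1, Ccn2 and Srpx2. They were chosen by name, after results of the same comparison had been seen, among the 19935 genes that had an array row carrying a single gene symbol. A row was measured for 8 of the 9, with 1 row each, and Spp1 was not analysed here. The arrays came from primary keratinocytes of CD1 mice, wild type in genotype, kept in low-calcium medium and infected with an MSCV retrovirus. In 3 cultures the virus carried caNFATc1, a human NFATc1 whose autoinhibitory domain was mutated so that the factor stays active. In 3 vector control cultures the virus was empty. Every culture had therefore been infected, the transgene was of human origin and delivered by the virus, and the comparison asks which transcripts differ when NFATc1 is held active in these cells.

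Matricellular proteins bind collagens, fibronectin and growth factors on one side and cell surface receptors, mainly integrins, on the other, and so tune adhesion, migration and growth factor release. In skin they are mostly low in resting tissue and rise at wound edges, in fibrosis and around tumours, where fibroblasts are a main source and keratinocytes a further one. NFATc1 enters the nucleus once calcineurin, a phosphatase switched on by calcium, has acted on it, and it is known in skin for its role in hair follicle stem cells.

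Each array value is a log2 value relative to the median of its row over the 6 arrays, so differences between arrays are measured and the level of a gene is not. Values of different genes can for that reason be set against each other only as differences. Array medians over all rows lay between -0.01 and 0.02. Replicate 1 stood apart in both groups: Xist, the RNA of the inactive X chromosome, was at -6.05 on the caNFATc1 array and -6.00 on the vector array, against values between -0.04 and 0.18 on the other 4 arrays. Eif2s3y, a gene of the Y chromosome, was at 3.77 on the caNFATc1 array and 3.00 on the vector array of replicate 1. On the other 4 arrays Eif2s3y was between -0.08 and 0.01. The known NFAT target Rcan1 differed by 3.38 ± 0.19 between the groups (SE, n = 3 per group). The row for mouse Nfatc1 differed by 0.04 ± 0.09, and whether it detects the human transgene was not tested.

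The fasciclin family members came apart. Postn encodes periostin, a fasciclin-domain protein that binds collagen, fibronectin and tenascin-C and signals through αv integrins. It was at 1.98, 1.68 and 1.92 on the caNFATc1 arrays, against -1.86, -3.03 and -1.68 on the vector control arrays of replicates 1, 2 and 3. The groups lay far apart, with a tight caNFATc1 group and a single low array among the controls, vector replicate 2. The difference was 3.83, 4.71 and 3.60 in the same-numbered pairs, a mean of 4.05 ± 0.59 (SD, n = 3 pairs) or 16.5-fold. Ranked by that difference, Postn stood at place 4 of 19935 genes, and at places 5, 2 and 6 within the single pairs. Tgfbi encodes the other classical fasciclin-domain protein of the matrix, which carries an integrin-binding motif and is named for its induction by TGF-beta. It was at 0.01, -1.05 and -0.01 on the caNFATc1 arrays and at 0.07, -0.45 and 0.03 on the vector arrays. The groups overlapped and replicate 2 was low in both. The mean difference was -0.23 ± 0.32 (SD, n = 3 pairs), negative in each pair. Without caNFATc1 replicate 2 alone, which leaves its pair unmatched, it was 0.12, and without replicate 2 of both groups -0.05.

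Srpx2 encodes a sushi-repeat protein that is a known ligand of the urokinase receptor. Its values were 1.78, 0.89 and 0.83 on the caNFATc1 arrays, against -0.83, -1.94 and -2.05 on the vector arrays. The groups did not overlap, and replicate 1 was the highest array in each of them. The pair differences were 2.62, 2.83 and 2.88, a mean of 2.78 ± 0.14 (SD, n = 3 pairs) or 6.85-fold, which placed Srpx2 at 11 of 19935 genes. The SD over arrays within a group was 0.53 in caNFATc1 cells and 0.68 in vector cells, several times the SD of the pair differences. Srpx2 lies on the X chromosome, and replicate 1 is also the replicate in which Xist was low and Eif2s3y high. With 1 such replicate, its part in the higher Srpx2 values cannot be told apart from other features of that culture.

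Tnc encodes tenascin-C, a large hexameric glycoprotein of wound edges that periostin binds. Tnc was at -0.37, 0.75 and 1.72 on the caNFATc1 arrays and at -1.04, -1.10 and 0.37 on the vector arrays. The groups overlapped, because vector replicate 3 lay above caNFATc1 replicate 1, yet the caNFATc1 array was the higher one in each pair. The pair differences of 0.67, 1.85 and 1.35 gave a mean of 1.29 ± 0.59 (SD, n = 3 pairs), or 2.44-fold.

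The sequence before the gene starts was read for the genes that stood apart most and for the fasciclin gene that did not. RefSeq start sites (GRCm38.p6) were matched for 7 of the 9 genes, with 10 windows of 250 bases before the start, and Thbs1 and Ccn2 were the genes without a match. The windows shown are those of Srpx2 and Tgfbi and, where a gene had 2 starts, the downstream one of Postn and of Tnc, whose 2 windows overlap. They lie at chr3:54360857-54361106 on the plus strand for Postn, chrX:133908175-133908424 on the plus strand for Srpx2, chr4:64046937-64047186 on the minus strand for Tnc and chr13:56609336-56609585 on the plus strand for Tgfbi. Capitals mark GGAAA, the core that NFAT factors bind, read on either strand (TTTCC).
Postn: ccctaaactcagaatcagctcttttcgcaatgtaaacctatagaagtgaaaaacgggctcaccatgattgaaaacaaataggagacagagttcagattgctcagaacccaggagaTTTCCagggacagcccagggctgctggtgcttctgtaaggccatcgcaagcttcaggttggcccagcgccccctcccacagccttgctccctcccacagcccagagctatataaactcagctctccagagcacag
Srpx2: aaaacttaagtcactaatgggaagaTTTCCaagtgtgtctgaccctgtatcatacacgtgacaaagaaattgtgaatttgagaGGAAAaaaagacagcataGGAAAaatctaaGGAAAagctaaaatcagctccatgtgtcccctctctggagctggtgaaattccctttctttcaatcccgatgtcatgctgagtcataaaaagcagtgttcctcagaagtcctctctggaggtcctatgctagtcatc
Tnc: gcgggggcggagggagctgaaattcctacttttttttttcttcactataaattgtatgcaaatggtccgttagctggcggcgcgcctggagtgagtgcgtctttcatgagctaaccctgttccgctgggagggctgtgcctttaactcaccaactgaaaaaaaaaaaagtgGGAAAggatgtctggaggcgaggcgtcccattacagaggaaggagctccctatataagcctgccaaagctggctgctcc
Tgfbi: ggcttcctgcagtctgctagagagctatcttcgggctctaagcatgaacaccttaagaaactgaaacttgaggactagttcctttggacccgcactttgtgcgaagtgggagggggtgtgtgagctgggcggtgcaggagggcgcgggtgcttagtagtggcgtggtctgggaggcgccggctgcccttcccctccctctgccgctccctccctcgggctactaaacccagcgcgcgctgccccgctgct
The Srpx2 window held 4 cores, Postn and Tnc held 1 each in the windows shown, and Tgfbi held 0. The upstream windows of Postn and of Tnc held 0, Sparc held 0, Thbs2 held 3, and each of the 2 windows of Spp1 held 1. Among all 32851 windows of this length in the table, 55.6% held at least 1 core, 6.39% held 3 or more and 1.59% held 4 or more, so a single core is common. The AP-1 motif TGANTCA was found in the Srpx2 window, in none of the other 9, and in 6.75% of all windows. The TEAD motif GGAATG, read on either strand, was in none of the 10 windows and in 12.6% of all. The Postn window shown held the TATA motif TATAAA, starting 26 bases before the start site, a motif that 12.4% of all windows held on either strand. A TATA match farther from the start was found in both Tnc windows, in Thbs2 and in 1 window of Spp1. In Tnc it was the same site, 126 bases before the upstream start and 205 before the downstream one. It began 126 bases before the start in Thbs2 and 211 in Spp1. The NFAT and TEAD motifs share the letters GGAA. A match of letters is a description and does not show binding, and a window without one says nothing of the factor.

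Thrombospondins 1 and 2 are trimeric glycoproteins that inhibit angiogenesis through CD36 and CD47, and thrombospondin 1 also releases active TGF-beta from its latent complex. Thbs1 was at 0.31, 0.12 and 1.27 on the caNFATc1 arrays, against -0.12, -0.56 and -0.58 on the vector arrays. All caNFATc1 arrays lay above all vector arrays, and caNFATc1 replicate 3 was far above the other arrays. The pair differences were 0.43, 0.68 and 1.85 (mean 0.99 ± 0.76, SD, n = 3 pairs, 1.98-fold), and without caNFATc1 replicate 3 the difference was 0.63, or 0.55 without replicate 3 of both groups. Thbs2 was at 0.22, -0.04 and 0.60 on the caNFATc1 arrays and at -0.01, -0.09 and 0.01 on the vector arrays. Its groups overlapped, and its mean difference of 0.29 ± 0.27 (SD, n = 3 pairs) came to 0.12 with caNFATc1 replicate 3 left out and to 0.14 with the whole of pair 3 left out.

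Sparc encodes a collagen-binding, calcium-binding glycoprotein also called osteonectin. Sparc was at 0.02, -0.02 and 0.23 on the caNFATc1 arrays and at -0.05, -0.12 and 0.08 on the vector arrays, with overlapping groups. Its difference of 0.11 ± 0.04 (SD, n = 3 pairs) was the closest to 0 of the 8 measured genes. Ccn2 encodes connective tissue growth factor, a protein whose gene is a known target of TGF-beta and of YAP and TAZ. Ccn2 was at 0.53, 0.65 and 0.66 on the caNFATc1 arrays, against -0.53, -0.90 and -1.34 on the vector arrays. The groups did not overlap, and the spread lay mostly among the controls. The pair differences were 1.05, 1.55 and 2.00, a mean of 1.53 ± 0.47 (SD, n = 3 pairs) or 2.90-fold.

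**Figure D1:**
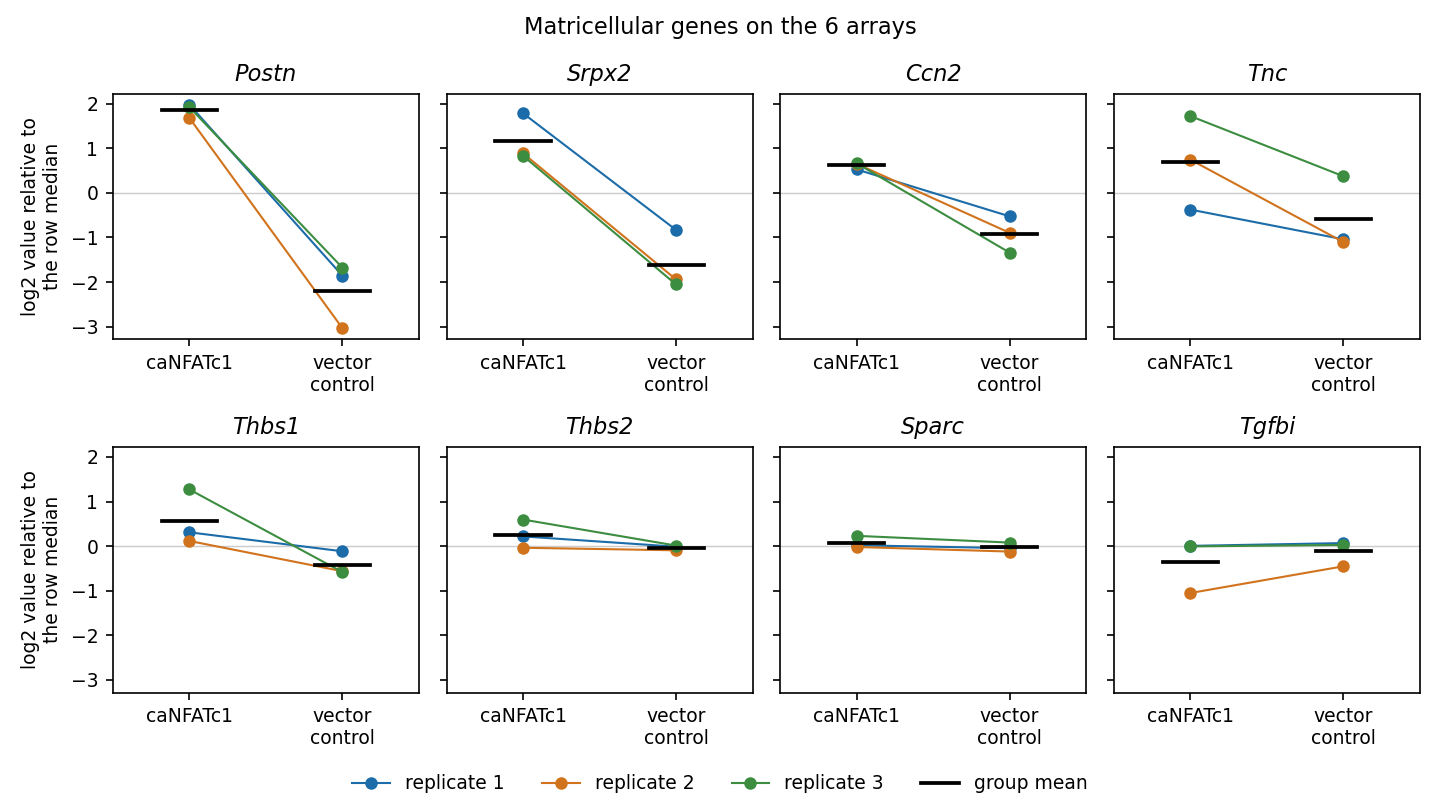
Log2 values relative to the row median (y axis) of the 8 measured matricellular genes on the 3 caNFATc1 and 3 vector control arrays, with a line joining arrays of the same replicate number and a bar at each group mean. Postn, Srpx2, Ccn2 and Thbs1 have all caNFATc1 points above all vector points, while the groups of Tnc, Thbs2, Sparc and Tgfbi overlap.

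Of the list, 7 of the 8 measured genes were higher in caNFATc1 cells in each of the 3 pairs, where 21.6% of all genes were, and Tgfbi was lower in each pair, where 21.3% were. The median difference of the 8 was 1.14, against -0.01 over all 19935 genes. Because the genes were proposed from this comparison, these values describe them and no test is given for any of them. In the limma fit across all genes, with a Benjamini-Hochberg adjusted p under 0.05, 1 of the 8 (Postn) was among the higher genes, where 0.206% of all genes were. With the replicate number as a block in that fit, 4 of the 8 (Postn, Srpx2, Ccn2 and Tnc) were, where 3.73% of all genes were. All 3 caNFATc1 arrays lay above all 3 vector arrays for 4 of the 8, and for 9.64% of all genes. None of the 8 was among the lower genes, which were 0.01% of all genes without the block and 2.38% with it. Both directions together came to 0.216% of all genes without the block and 6.11% with it. None of the 8 had all caNFATc1 arrays below all vector arrays, an order that 9.09% of all genes showed. Without the block Postn was no longer among the higher genes after quantile normalization or without caNFATc1 replicate 1 or 3 or vector replicate 1 or 3.

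The 8 genes did not differ equally, nor did each keep its place from pair to pair. Ordered by the mean difference they ran Postn, Srpx2, Ccn2, Tnc, Thbs1, Thbs2, Sparc and Tgfbi. Postn had the greater difference than Srpx2, and Srpx2 than Ccn2, in each of the 3 pairs. The neighbours Ccn2 and Tnc, Tnc and Thbs1, and Thbs2 and Sparc changed order between pairs, so their order lies within the spread. Among all 19935 genes, Srpx2 stood at places 22, 10 and 16 in pairs 1, 2 and 3, and Ccn2 at places 245, 43 and 47. Tnc stood at 601, 29 and 130, and Thbs1, the least steady of these, stood at 1296, 326 and 58. Thbs2 stood at 2729, 8127 and 692, Sparc at 5652, 6036 and 3999, and Tgfbi at 10246, 19605 and 12631. Pair 1 gave the smallest difference for Srpx2, Ccn2, Tnc, Thbs1 and Sparc. The median over the 8 genes was 0.55, 1.11 and 1.60 in pairs 1, 2 and 3, while the median over all genes was -0.06, 0.02 and 0.01.

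The spread between cultures also took different shapes. For Tnc, replicate 3 was the highest array in both groups, and vector replicate 3 stood 0.96 above its group mean. For Srpx2 replicate 1 stood 0.62 above the mean of its group in caNFATc1 cells and 0.78 above it in vector cells. For Tgfbi replicate 2 stood below its group mean in both groups, at -0.70 in caNFATc1 cells and -0.33 in vector cells. Ccn2 did not follow that form: its deviations were between -0.09 and 0.05 in caNFATc1 cells and between -0.42 and 0.39 in vector cells. Postn also varied less among caNFATc1 arrays (-0.18 to 0.12) than among vector arrays (-0.84 to 0.51). As for Tgfbi, its replicate 2 was the lowest array in both groups.

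**Figure D2:**
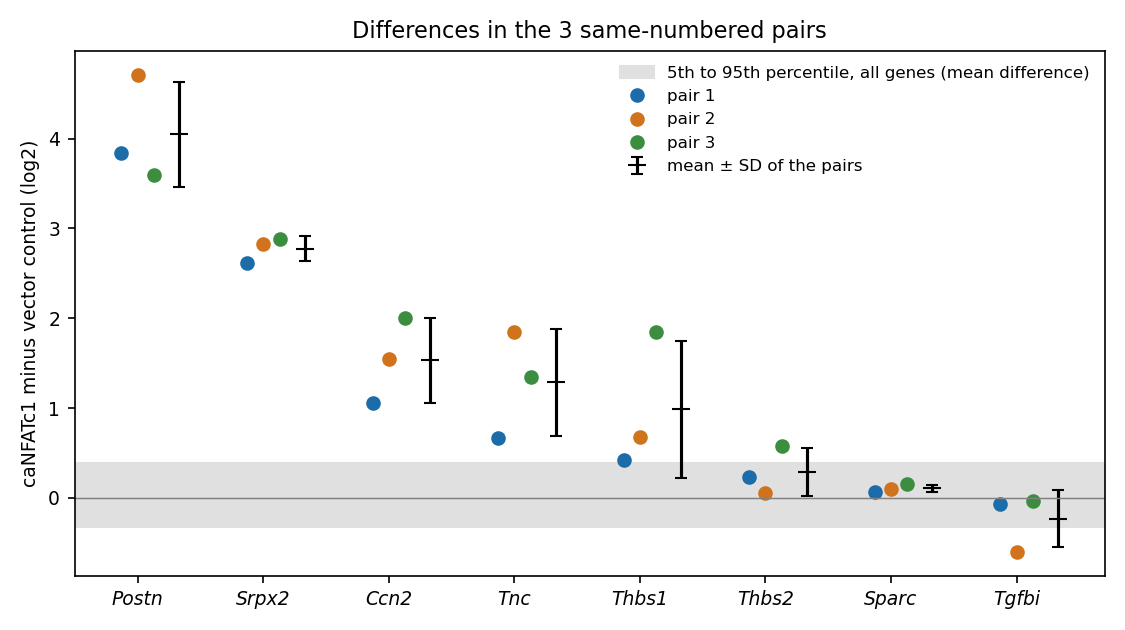
Difference of caNFATc1 minus vector control (log2, y axis) in each same-numbered pair of arrays for the 8 genes, ordered by their mean, with the mean ± SD of the 3 pairs beside the points. The grey band runs from the 5th to the 95th percentile of the mean differences of all genes, from -0.33 to 0.39. Every pair of Postn, Srpx2, Ccn2, Tnc and Thbs1 lies above it. The means of Thbs2, Sparc and Tgfbi lie inside it, with pair 3 of Thbs2 (0.58) above it and pair 2 of Tgfbi (-0.60) below it. The band is for means of 3 pairs and not for single pairs: within pair 1, Thbs1 stood at place 1296 of 19935 genes, outside the top 5%.

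The genes whose pattern over the 6 arrays was most like that of Postn, by Euclidean distance between the row-centred values, were Atp1b1, Rcan1, Loxl3, Olr1 and Fmod. Atp1b1, which encodes the beta chain of the pump that exchanges sodium for potassium, was nearest at a distance of 1.08, and Rcan1, an inhibitor of calcineurin, followed at 1.45. Loxl3, a lysyl oxidase, lay at 1.59, Olr1, a receptor for oxidised lipoprotein, at 1.75, and Fmod, a collagen-binding proteoglycan, at 1.86. Their differences of caNFATc1 minus vector lay between 2.96 and 4.56, and over 6 arrays in 2 groups a distance depends largely on the size of that difference. Vector replicate 2 set Postn apart from them: Postn was at -3.03 there, and the 5 genes were between -2.01 and -1.68. Near Ccn2 lay Suox, the nucleoside transporter gene Slc29a1 and the kinase gene Sgk1, at distances between 0.55 and 0.56. Near Srpx2 lay Boc, Prelp and Nupr1 (0.91 to 0.95), and near Tnc lay Plxdc1, Megf6 and Vtcn1 (0.91 to 1.13). Near Thbs1 lay the protease gene Adamts8 (0.31), Syde2 (0.46) and Nat3 (0.48).

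**Figure D3:**
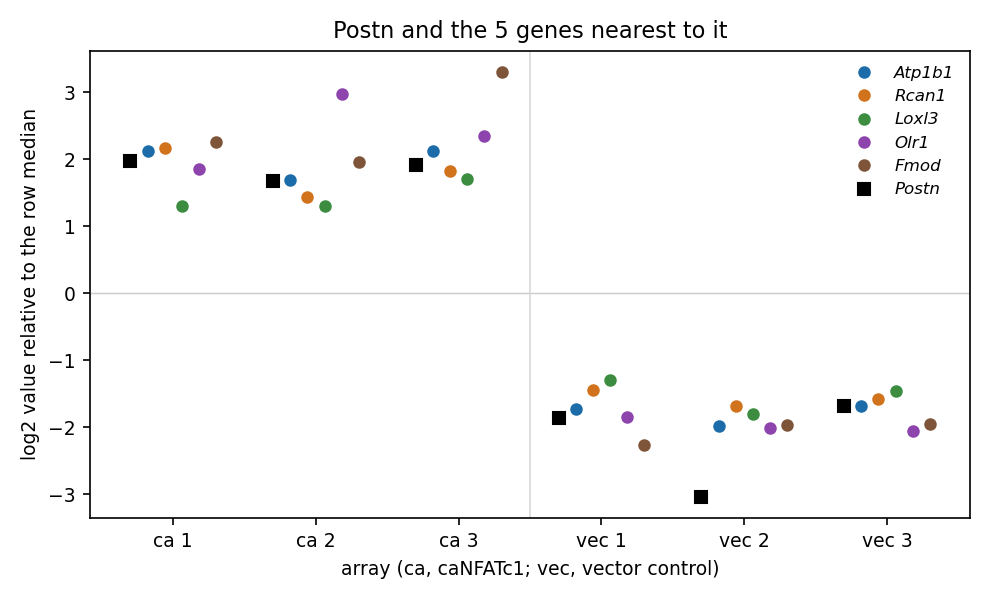
Log2 values relative to the row median (y axis) of Postn (black squares) and the 5 genes nearest to it on each of the 6 arrays (x axis, ca for caNFATc1 and vec for vector control). All 6 genes lie above 1.3 on the caNFATc1 arrays and below -1.3 on the vector arrays, and Postn is the lowest of them on vector replicate 2.

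Matricellular genes are strongly transcribed by fibroblasts, so a list of 12 fibroblast markers was read beside them, and in whole cultures a greater share of such cells cannot be told apart from more RNA per cell. The 12 markers had a median difference of 0.11, with 8 positive and 4 negative. The collagen gene Col3a1 and the receptor gene Pdgfra lay higher on all caNFATc1 arrays than on all vector arrays, by 1.20 and 0.83. Of the 12 markers, 9 had their highest value on caNFATc1 replicate 3. Leaving out Vim, which was at -2.92 on caNFATc1 replicate 1 and at -2.98 on vector replicate 1, the mean of the other 11 markers was 0.07, 0.06 and 0.54 on the caNFATc1 arrays and 0.00, -0.04 and -0.08 on the vector arrays. Of the remaining markers, Col1a1 differed by 0.48, Pdgfrb by 0.26, Vim by 0.21, Twist2 by 0.14, Dcn by 0.08 and Col1a2 by 0.05. Fap and Lum each differed by -0.01, Mfap5 by -0.04 and Thy1 by -0.14.

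On caNFATc1 replicate 3, 5 of the 8 matricellular genes had their highest value: Tnc, Thbs1, Thbs2, Sparc and Ccn2. For Ccn2 that was 0.66, against 0.65 on caNFATc1 replicate 2. The share of all genes highest on caNFATc1 replicate 3 was not counted, so this count and the 9 of 12 markers stand without a background. Without that array, which leaves its pair unmatched, the differences were 0.78 for Tnc, 0.63 for Thbs1, 0.12 for Thbs2 and 0.03 for Sparc. Without replicate 3 of both groups they were 1.26 for Tnc, 0.55 for Thbs1, 0.14 for Thbs2 and 0.08 for Sparc. With all arrays the differences were 1.29 for Tnc, 0.99 for Thbs1, 0.29 for Thbs2 and 0.11 for Sparc, so each was lower either way. Tnc, Thbs2 and Sparc were closer to those values when the whole pair was left out, and Thbs1 when only the array was. Without that array Postn stood at 4.02, Srpx2 at 2.94 and Ccn2 at 1.51, and without replicate 3 of both groups at 4.27, 2.72 and 1.30. The median over the 8 genes was 0.70 without that array and 0.90 without replicate 3 of both groups, against 1.14 with all arrays. Postn was at 1.98 and 1.68 on caNFATc1 replicates 1 and 2, where the mean of those 11 markers was 0.07 and 0.06, and at 1.92 on replicate 3, where it was 0.54. The part of fibroblast RNA in the values of any of the 8 genes was not tested. Endothelial, melanocyte, leukocyte, smooth muscle and Merkel cell lists had medians between -0.09 and -0.02, and none of their genes passed either fit. Among 8 keratinocyte markers, 4 had a positive and 4 a negative difference, between -0.58 (Krt15) and 0.42 (Trp63), with a median of 0.01. Trp63 rose (0.42 ± 0.08, limma adjusted p = 0.0444 with the block), and no other marker of that list passed either fit. As the values carry no levels, none of these lists can show whether a cell type was present.

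**Figure D4:**
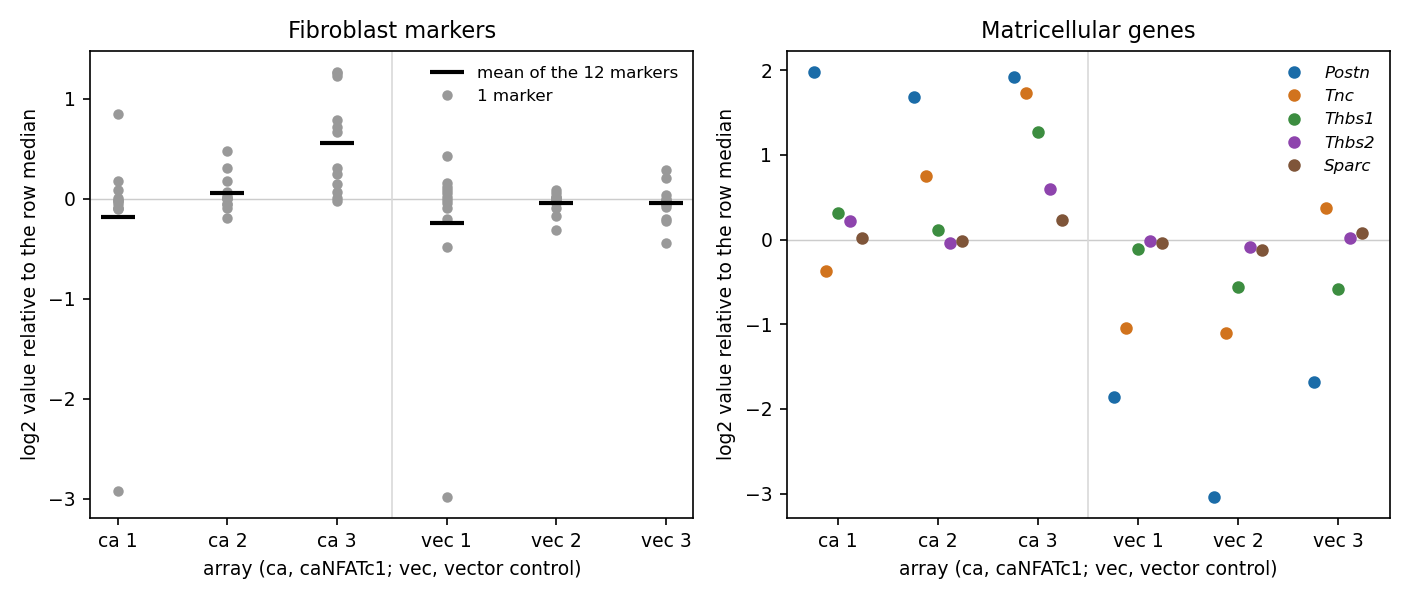
Log2 values relative to the row median (y axes) on each array (x axes, ca for caNFATc1 and vec for vector control) for 12 fibroblast markers, with their mean as a bar, and for 5 matricellular genes. The marker mean is highest on caNFATc1 replicate 3, where Tnc, Thbs1, Thbs2 and Sparc are highest too, while Postn is high on all 3 caNFATc1 arrays; the marker near -3 on both arrays of replicate 1 is Vim.

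Relatives of the matricellular genes, their receptors, partners and regulators were then read from the same fit, using lists of 110 genes with 107 measured. Differences below are caNFATc1 minus vector control with the SE of the limma fit that has the replicate block, and its adjusted p over all genes (n = 3 pairs), and "rose" and "fell" refer to that fit unless said otherwise. Without the block Ecm1 alone passed among the 107. With it 18 rose and 3 fell, which is 16.8% and 2.80% of the 107, and 3.73% and 2.38% of all genes rose and fell. The lists were chosen with earlier results of these data known, so this share and those of the single lists below are descriptions and not tests. Of those 21, 14 passed with each pair left out in turn.

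Among 25 family relatives, 3 rose and 1 fell with the block, and the list's median was -0.02, against -0.01 over all genes. Without the block 0 passed by limma, and 3 had an unadjusted p under 0.05, or 12%, where 12.7% of all genes did. The thrombospondin Thbs3 was at 0.68, 0.46 and 0.86 on the caNFATc1 arrays, against -0.93, -0.59 and -0.46 on the vector arrays, with no overlap. The rise of 1.33 ± 0.11 had an adjusted p of 0.00639 with the block and 0.0515 without it. Ccn1, which like Ccn2 encodes a CCN protein and is a known YAP target, was at 0.19, 0.63 and 1.14 on the caNFATc1 arrays, against -0.19, -0.56 and -0.30 on the vector arrays. It rose by 1.01 ± 0.20 (adjusted p = 0.0464 with the block), and did not pass without pair 2 (0.114) or after quantile normalization with the block (0.0729). Fstl1, a secreted protein with a SPARC-like domain, rose by 1.33 ± 0.17 (0.0176 with the block), did not pass without pair 1 (0.0551), and had overlapping groups, with replicate 1 low in both. Stab1, a scavenger receptor with fasciclin domains that takes up SPARC, fell by 0.61 ± 0.08 (0.0177 with the block), had overlapping groups, and did not pass after quantile normalization with the block (0.0618). Ccn3 and the tenascin gene Tnr differed by -0.11 and -0.16 and passed neither fit.

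Among 12 measured other matricellular genes, 3 rose and 1 fell with the block. Without it 1 passed by limma, and 3 had an unadjusted p under 0.05, or 25%, against the same 12.7%. Ecm1, a secreted protein of the dermal and epidermal matrix, was at 0.48, 0.64 and 0.71 on the caNFATc1 arrays, against -0.58, -0.49 and -0.48 on the vector arrays. The groups lay well apart with little spread in either. Ecm1 rose by 1.12 ± 0.08 without the block (adjusted p = 0.0199) and by 1.12 ± 0.07 with it (0.00382). Leaving out single arrays without the block gave adjusted p between 0.0187 and 0.129, with 2 of the 6 settings under 0.05. Mfge8, which bridges αv integrins and dying cells, rose by 1.04 ± 0.10 (adjusted p = 0.00911 with the block), and the galectin gene Lgals3 by 0.80 ± 0.09 (0.0141). The fibulin gene Efemp1 fell by 0.86 ± 0.11 (0.0177 with the block, 0.712 without), with overlapping groups. Fbln2 differed by -0.86 without passing (0.0608 with the block).

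Of 22 measured receptors, 6 rose and 0 fell with the block, 0 passed without it by limma (6 at an unadjusted p under 0.05, or 27.3%, where 12.7% of all genes were), and the list median was 0.07. The fibronectin receptor subunit gene Itga5 was at 1.26, 0.57 and 0.81 on the caNFATc1 arrays, against -0.86, -0.69 and -0.57 on the vector arrays, and Itga5 rose by 1.58 ± 0.17 (0.0117). Cd44, a receptor of hyaluronan and osteopontin, rose by 1.54 ± 0.12 (0.00604). Itgb5, the partner of αv in a periostin receptor, was at 0.85, 0.17 and 0.48 on the caNFATc1 arrays, against -0.17, -0.78 and -0.55 on the vector arrays. These arrays did not overlap, and Itgb5 rose by 0.99 ± 0.06 (0.00446 with the block, 0.153 without). The proteoglycan gene Sdc4, a co-receptor for fibronectin that CCN2 also binds, rose by 0.90 ± 0.07 (0.00605), and Itgb1, the common β subunit, by 0.65 ± 0.08 (0.018). Itgb6, whose αv dimer activates latent TGF-beta, rose by 0.48 ± 0.08 (0.0363 with the block, 0.665 without). Its groups overlapped, and it did not pass with the block without pair 1 (0.0868) or pair 2 (0.124).

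Some direct receptors of the 8 genes are named here, outside the naming rule, although their values had been seen. Other receptors of the list that did not pass are not named. The αv gene Itgav differed by 0.60 ± 0.13 (adjusted p = 0.0538 with the block), with all caNFATc1 arrays above all vector arrays. Itgb3, the other β partner of αv for periostin, differed by -0.04 ± 0.07. The urokinase receptor gene Plaur, whose product binds SRPX2, differed by 0.20 ± 0.12 (0.436). The thrombospondin receptor genes Cd47 and Cd36 differed by 0.06 ± 0.08 and -0.57 ± 0.13 (0.801 and 0.0603).

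Among 25 matrix partners and processing enzymes, 3 rose and 0 fell with the block, 0 passed without it by limma (5 at an unadjusted p under 0.05, or 20.0%, against the same 12.7%), and the list median was 0.03. Lox, whose product cross-links collagen and is activated on a periostin scaffold, was at 0.93, -0.03 and 0.59 on the caNFATc1 arrays, against 0.03, -0.81 and -0.26 on the vector arrays. Its groups overlapped while each pair differed the same way, and Lox rose by 0.84 ± 0.07 (0.00604 with the block, 0.337 without). The collagen gene Col6a1 rose by 0.73 ± 0.10 (0.0207). Col3a1, which is among the fibroblast markers too, rose by 1.20 ± 0.19 (0.0296) and did not pass without pair 1 (0.0862). The convertase gene Furin and Notch1, a receptor that periostin binds, differed by 0.30 and 0.59 without passing (0.108 and 0.082).

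Among 23 measured regulators, 3 rose and 1 fell with the block, 0 passed without it by limma (5 at an unadjusted p under 0.05, or 21.7%, against the same 12.7%), and the list median was 0.09. Tgfb1, an inducer of Postn, Tgfbi and Ccn2 in many cells, was at 0.16, 0.33 and 0.42 on the caNFATc1 arrays, against -0.55, -0.21 and -0.16 on the vector arrays. These groups did not overlap, and Tgfb1 rose by 0.61 ± 0.07 (0.0132). Its receptor gene Tgfbr1 rose by 0.52 ± 0.09 (0.0319), and did not pass without pair 1 (0.0522) or pair 2 (0.0548). Wwtr1, which encodes the coactivator TAZ, rose by 0.53 ± 0.08 (0.0254), and did not pass without pair 1 (0.0512). Tead4, a DNA-binding partner of YAP and TAZ, fell by 0.83 ± 0.15 (0.036 with the block, 0.376 without). Its groups overlapped, and it did not pass with the block without pair 1 (0.0610). Tgfb3 differed by 0.88 without passing (0.0822).

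**Figure D5:**
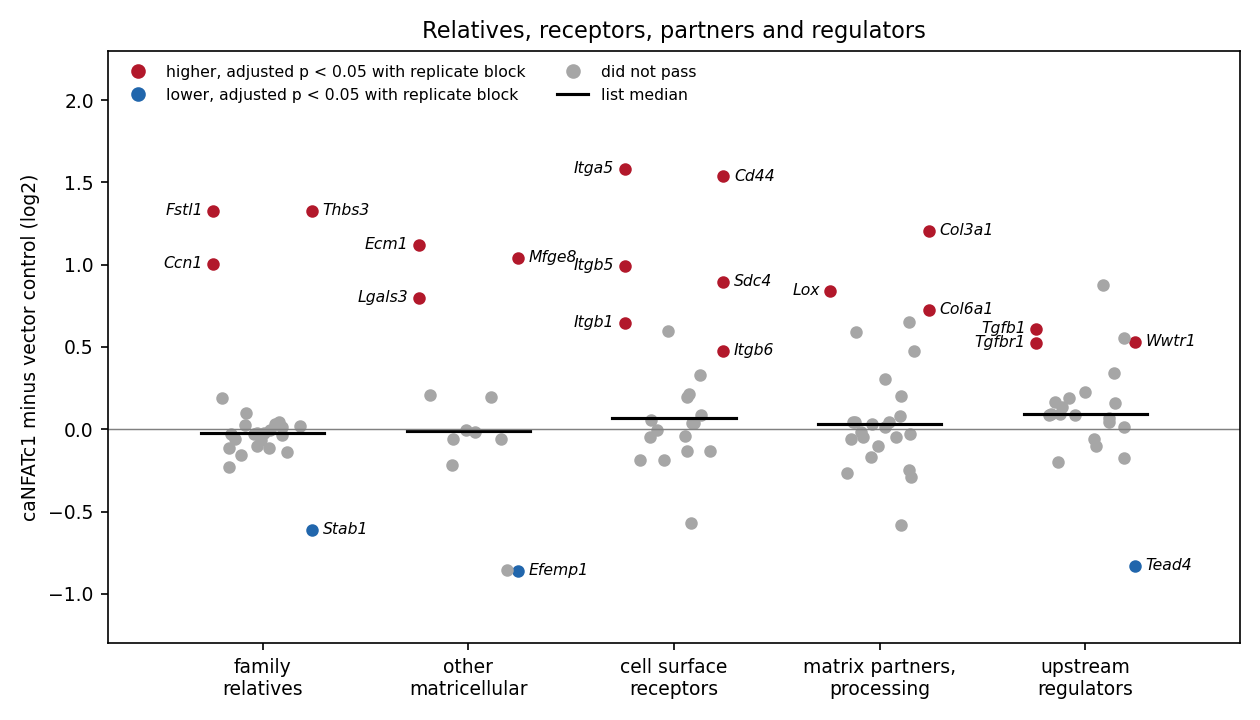
Difference of caNFATc1 minus vector control (log2, y axis) for each measured gene of 5 lists (x axis), with the list median as a bar. Coloured and named points passed an adjusted p of 0.05 with the replicate block, 18 higher and 3 lower, and the medians of the 5 lists lie between -0.02 and 0.09.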

How the data were processed

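RNA from 3 caNFATc1 and 3 vector control keratinocyte cultures was measured on single-colour arrays. The authors deposited log2 values per array row, made with RMA and the genome build mm8 per the submitters' processing notes, and each row is centred on its own median, as the values show. The base of the logarithm is taken from RMA's usual scale, and the software's version and any row filter are not stated in the labels. Of 28815 rows, 21780 carried 1 symbol in the platform annotation, and averaging rows that share a symbol gave 19935 genes. The number of arrays limits precision, and rows could not be filtered on brightness.

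The comparison used lmFit and eBayes of limma 3.58.1 in R 4.3.3, with group as the only term and 2-sided tests, with Benjamini-Hochberg adjusted p under 0.05 over all genes, after testing on simulated data. The SE is limma's moderated one. Without a replicate block, p-values measure the spread between these cultures, which the series calls biological replicates. With the block they measure the spread left once differences between replicate numbers are removed. Replicate numbers come from the titles. Across genes, arrays with the same number deviated together from the means of their groups (r = 0.71, 0.61 and 0.57, each over the limit of 0.1), so pairs were formed by number, and the fit with the number as a block is given beside the unblocked one. The 9 genes, the lists and the rules were chosen with earlier results of these data known. Named were the 9 genes, the 5 nearest genes to Postn and 3 to each other member, and list genes past either fit or among the 4 lowest p. Fibroblast markers and the receptor genes Itgav, Itgb3, Plaur, Cd47 and Cd36 were named outside that rule. The genes nearest to Tgfbi, Thbs2 and Sparc, which lay within the central range of all genes, are not listed. Alternatives were the block, leaving out arrays or pairs, the row with the largest interquartile range, quantile normalization, subtracting array medians and a robust prior. Promoter windows and motifs come from RefSeq sequences (GRCm38.p6), a build other than the arrays'.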

Additional observations from a re-analysis of the deposited data

How the results depend on the processing

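With 3 arrays per group and values relative to row medians, brightness and signal over background are unknown, so a low difference may come from a dim row. With the replicate block, limma called 744 genes higher and 475 lower (41 and 2 without). The block gave 4 of the 8 matricellular genes (1 without), 3 relatives higher and 1 lower, 3 other matricellular genes higher and 1 lower, 6 receptors higher, 3 partners higher, and 3 regulators higher and 1 lower, against 0 without it except 1 other matricellular gene. Quantile normalization without the block gave 149 higher and 20 lower genes, 0 of the 8 matricellular genes, 1 relative, 3 receptors, 1 partner and 1 regulator higher.

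The settings that join the block with another choice were chosen after seeing the data. With quantile normalization and the block the counts were 657 and 373 over all genes, 3 of the 8, 2 relatives higher, 3 other matricellular genes higher and 2 lower, 6 receptors higher and 1 lower, 3 partners higher, and 3 regulators higher and 1 lower. Array medians subtracted with the block gave 723 and 434, 4 of the 8, 2 and 1 relatives, 3 and 1 other matricellular genes, 6 receptors, 3 partners, and 4 and 1 regulators. A robust prior with the block gave 722 and 456, and the block's own counts for the 8 genes and the lists.

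Leaving out 1 array or 1 pair without the block gave 0 to 74 genes higher and 0 to 9 lower, 0 to 1 of the 8 matricellular genes, 0 to 1 receptors, partners and other matricellular genes, and 0 relatives and regulators. The call of Postn was lost without caNFATc1 replicate 1 or 3 or vector replicate 1 or 3, and without pair 3. With the block and 1 pair left out, 509, 513 and 605 genes were higher and 202, 230 and 481 lower (without pairs 1, 2 and 3), with 4 to 5 of the 8 genes, 2 to 3 relatives, 3 other matricellular genes, 6 to 7 receptors, 2 to 5 partners and 1 to 4 regulators higher, and 1 relative, 1 to 2 other matricellular genes, 0 to 1 receptors, 0 to 1 partners and 0 to 1 regulators lower. The cause of these changes was not tested, and each such fit also had fewer arrays. The median difference of the 8 genes stayed positive in all 20 settings, between 0.70 and 1.43. Postn ranged from 3.63 to 4.30, Srpx2 from 2.47 to 3.16, Ccn2 from 1.30 to 1.77, Tnc from 0.78 to 1.82 and Thbs1 from 0.55 to 1.27. Tgfbi ranged from -0.49 to 0.12.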
